A study of Mus musculus with 16 samples.

Results

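The genes described here gave a higher signal in cells labelled as sorted GABAergic cells than in a total brain reference in every group of the series. A probe was taken when its mean log10 ratio of sorted cells to reference, as deposited by the authors, was at least 0.4 (2.51-fold) in each of the 5 groups, and when the scanner software marked it as well above background in the sorted-cell channel on all 16 arrays. Probes were then joined by the gene name of the array, and 109 of 708 names were dropped because another of their probes had a mean ratio below 0. This left 599 gene names, covered by 609 probes, of 29273 names and 41174 probes on the array. The ratios to the reference chose these members, so they are given as a description with no test. Differences among brain regions were not used by the choice and were tested. The minimum in each region still limits how far a member can fall there. Counts of members by direction therefore depend in part on the choice.

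Fluorescent cells came from newborn GAD67-eGFP mice on a C57Bl/6 background at postnatal day 1, whose green fluorescent reporter is expressed with glutamate decarboxylase 67, an enzyme that makes the inhibitory transmitter GABA. Cells were sorted from whole brain (4 arrays, tissue of 4 mice) and from 4 dissected regions with 3 arrays each (tissue of 6 mice), namely olfactory bulb, cortex, cerebellum and striatum. Their amplified cDNA carried Cy5, and amplified cDNA of whole-brain RNA from 4 mice of the same age carried Cy3 on every array. The labels call the samples biological replicates and do not say whether regions share animals, so p-values measure the spread between these samples. No group was untreated or unsorted, and the dyes were never swapped, so a gene-specific dye effect and a higher level in sorted cells cannot be told apart in the ratios themselves. In sorted material, more cells of a type and more RNA per cell also cannot be told apart.

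GABAergic cells of the forebrain and of the cerebellum arise from different progenitors. In the forebrain, homeodomain factors of the Dlx family act in the ganglionic eminences, where cortical and olfactory bulb interneurons and striatal projection neurons are born. In the cerebellum, other transcription factors specify Purkinje cells and inhibitory interneurons, and enzymes and transporters of GABA are shared by all of these cells.

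Known GABAergic genes were members about as rarely as genes of any kind. Of 6 genes for GABA synthesis, release and uptake, 0 were members, and of 18 measured forebrain GABAergic transcription factors only Dlx6os1 was. None of the 12 measured hindbrain and cerebellar GABAergic transcription factors or of the 15 GABA receptor genes was a member. Over these 4 lists that is 1 of 51 measured genes (1.96%), against 214 of all 17753 genes tested (1.21%). The enzyme genes that mark the sort show where the groups parted. Gad1, which encodes the tagged enzyme, had log2 ratios of -1.61, -1.47, -1.39 and -1.56 on the whole-brain arrays, against 0.58 to 1.26 on the 12 regional arrays. Gad2, the gene of the second enzyme form, had -0.24, -0.22, -0.25 and -0.40 in whole brain, against 0.68 to 1.97 in the regions. Whole brain and regions thus lay on opposite sides of the reference for both, with a difference of -2.34 for Gad1 (SE 0.09, adjusted p = 3.49e-14, limma) and of -1.87 for Gad2 (SE 0.08, adjusted p = 7.18e-14, limma). Slc32a1, the vesicular GABA transporter, stayed above the reference on every array that measured it, at 1.02 to 1.38 in whole brain and 0.45 to 1.79 in the regions. By Gad1 and Gad2, the whole-brain arrays thus did not show the enrichment that their label implies, while by Slc32a1 they did. Slc32a1 was the exception in its list. Of the 6 genes for GABA synthesis, release and uptake, 1 had a mean above the reference in whole brain, against 4 in each region. The median log2 ratio of that list was -0.475 in whole brain and 0.47 to 0.56 in the regions. The reason was not tested.

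Most members had no gene name. A symbol could be given to 216 of the 599 names (214 different genes, 212 names of protein-coding genes and 4 of long noncoding RNAs), 124 through a RefSeq accession and 92 through the array's name or its synonym. The other 383 kept a clone, locus or transcript name. Among member probes, 59.9% stood for AK cDNA clone records, against 21.1% of all 29857 probes above background in the sorted cells on every array. RefSeq mRNA records stood behind 24.0% of member probes and 61.5% of the same wider set. No cytosolic ribosomal protein probe of 141 in the wider set (0.47% of it) and no GABA or glutamate receptor probe of 54 (0.18%) was a member. Member probes were 609 of the 29857 in the wider set, so few members would fall in families of this size at that rate. Olfactory receptor probes gave 20 members (3.28% of member probes, against 1.70% of the wider set).

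**Figure D1:**
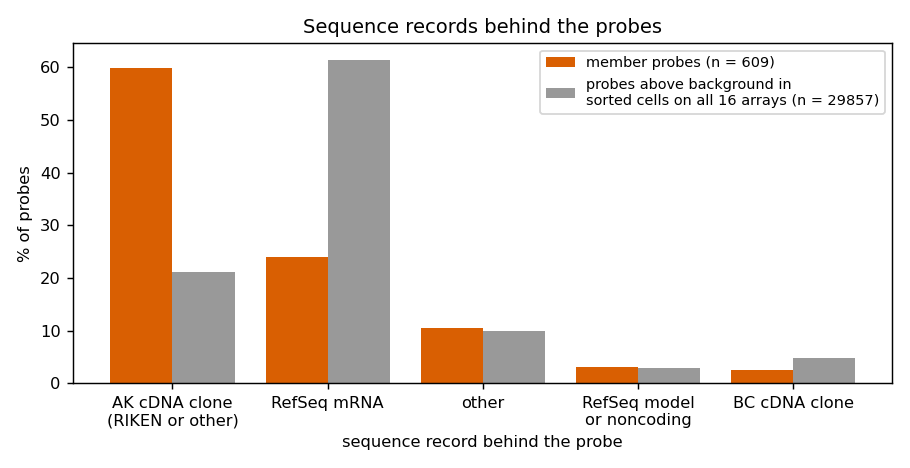
Sequence record behind each probe, as % of probes, for the 609 member probes (orange) and the 29857 probes above background in the sorted cells on all 16 arrays (grey). AK cDNA clones made up 59.9% of member probes and 21.1% of the wider set.

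The members were as bright as other probes in the sorted cells and dimmer in the reference. The median net signal of member probes was 409 units in the sorted-cell channel, against 48.8 units in the reference channel. The wider set of probes had medians of 420 and 190 units in the same channels, and the 314 negative control spots had 5.18 and 14.4 units. All 609 member probes lay above the 95th percentile of the negative controls in the sorted cells (7.36 units), and 559 did so in the reference (21.4 units). The reference was well above background on all 16 arrays for 295 members, on 1 to 15 arrays for 292 and on none for 12. For 155 members it was not well above background on any array of at least 1 group, which leaves only a lower bound on the fold there.

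**Figure D2:**
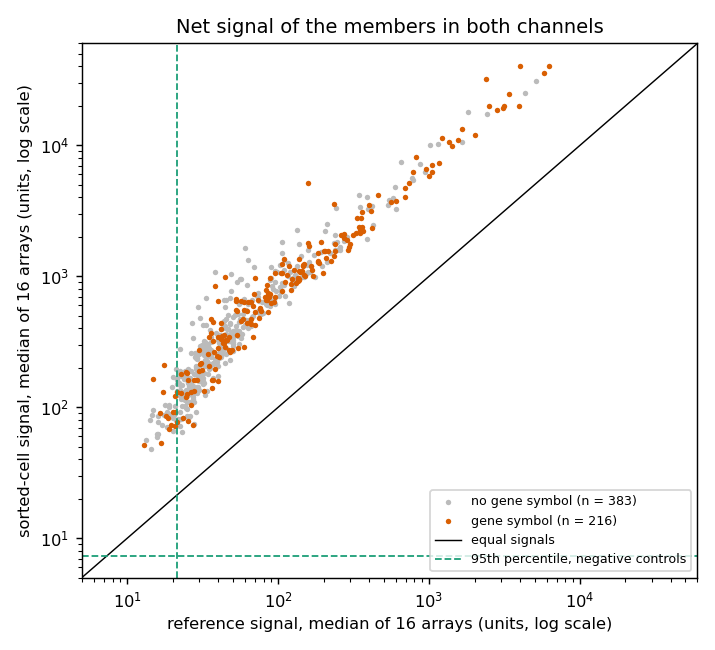
Net signal of each member in the sorted cells (vertical axis) against the reference (horizontal axis), as medians of 16 arrays in scanner units on log scales, for members with a gene symbol (orange) and without (grey). Every point lies above the line of equal signals, which follows from the choice of members. Members left of the vertical dashed line had a reference signal under the 95th percentile of the negative controls (21.4 units).

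Most probes chosen without an array also reached the minimum on it. The rule was applied without 1 array at a time, and the ratio on the array left out was then read for the probes so chosen. It was at least 0.4 for 82.5% (striatum replicate 2) to 96.5% (cortex replicate 3) of these probes, against 5.04% to 14.7% of the wider set on the same arrays. The other arrays of that group stayed in each choice and share its reference and dyes. The values thus show how well replicates repeat and are no support for the choice. Other probes of the same genes gave lower values. Of the 708 names at the minimum, 234 had further probes, and in only 5 did every probe reach the minimum. Among the kept members, 180 further probes of 120 names had mean log10 ratios of 0.00 to 0.70, with a median of 0.20. When probes were joined by updated symbols rather than by the array's names, 12 of the 214 named genes had a probe below 0, among them Mog, Gpr107 and Zc3h6, and their values are given below with that limit.

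The ratios used from here on were recomputed as log2 values from the spot signals, with normexp background correction and loess normalization within each array. Normexp adds 50 units to every signal, which draws ratios of dim spots towards 0, so the group means of members ran from 0.24 to 4.19 on this scale. Their medians were 1.21 in whole brain, 1.23 in olfactory bulb, 1.26 in cortex, 1.33 in cerebellum and 1.1 in striatum, against 0.01 to 0.04 over all probes tested.

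**Figure D3:**
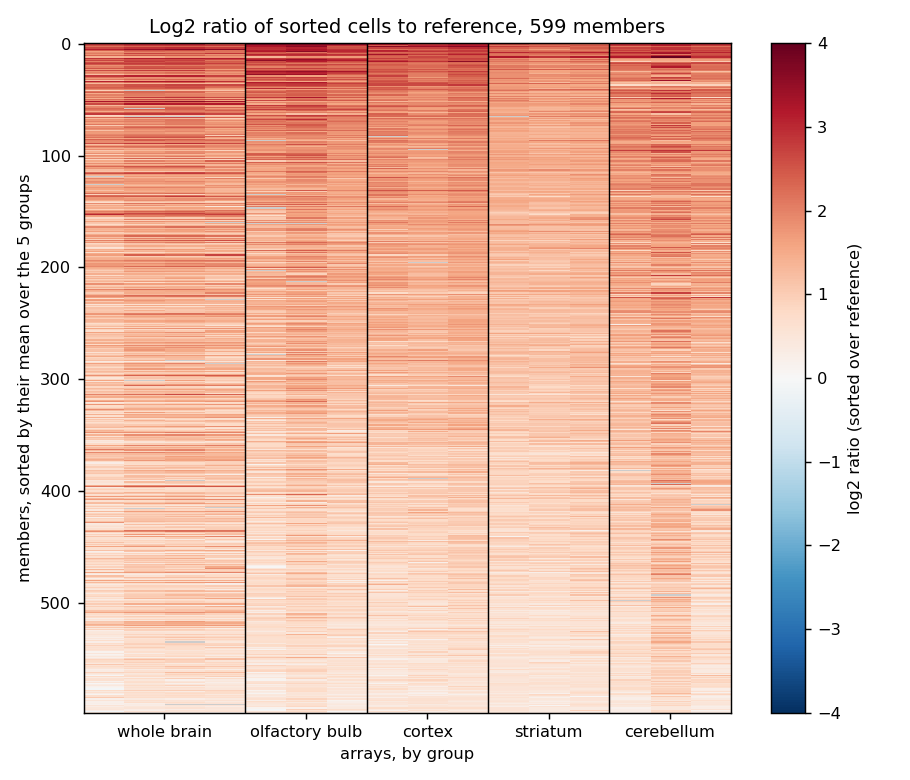
Log2 ratio of sorted cells to reference for the 599 members (down the page, sorted by their mean) on 16 arrays grouped by region, with missing spots in grey. Ratios are above 0 on nearly all arrays, palest on the striatum arrays (median 1.1) and deepest on the cerebellum arrays (median 1.33).

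The leading members by their lowest group ratio were of mixed function. Their deposited log10 ratio in the lowest group was 0.88 for Bsdc1, 0.85 for Klhl7, a ubiquitin ligase adaptor, 0.74 for Malat1, a nuclear long noncoding RNA, 0.73 for Phykpl, an enzyme of hydroxylysine breakdown, and 0.72 for Olfr672, an olfactory receptor. Fos and Brinp2 followed at 0.71 each, then Fgb, the fibrinogen beta chain, at 0.71, Klhl15 at 0.70, the histone methyltransferase gene Ehmt1 at 0.69 and the pheromone receptor gene Vmn1r9 at 0.66. A second array name for Malat1 also stood among them, at 0.66. Just above the minimum lay Shbg, Acly and Myo5c, at 0.40 each, and just below it Mynn, Ptpn11 and Ttll13, at 0.399 each in their lowest group. For Klhl7, the reference was not well above background on any whole-brain, olfactory bulb or striatum array, so sorted cells were at least 1.76-fold, 2.16-fold and 1.97-fold higher there. Ehmt1 was likewise at least 2.14-fold higher in whole brain, 1.79-fold in cortex, 1.84-fold in striatum and 1.84-fold in cerebellum. These bounds set the mean sorted signal against the higher of the dim signal and the lowest reference signal well above background on the array.

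Promoters are shown for some of the members named below, each with a match to a searched motif. These are the forebrain RNA Dlx6os1 (both annotated starts), the olfactory bulb gene Adarb2, the activity gene Fos and the abundant nuclear RNA Malat1. Each window runs from 250 bases before to 50 bases after a RefSeq transcript start, in build GRCm38.p6, and capitals mark the letters of 3 searched motifs on either strand. TAATTA is the core that many homeodomain proteins, Dlx factors included, are known to bind, TGACGT is the core of the cyclic AMP response element, and TATAAA is the TATA box.
Dlx6os1, chr6:6861634-6861933, minus strand: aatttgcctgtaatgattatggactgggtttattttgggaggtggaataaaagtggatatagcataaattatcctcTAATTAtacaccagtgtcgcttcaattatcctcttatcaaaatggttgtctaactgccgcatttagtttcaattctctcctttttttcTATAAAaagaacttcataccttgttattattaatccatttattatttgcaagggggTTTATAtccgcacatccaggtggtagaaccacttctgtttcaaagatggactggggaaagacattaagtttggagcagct
Dlx6os1, chr6:6869484-6869783, minus strand: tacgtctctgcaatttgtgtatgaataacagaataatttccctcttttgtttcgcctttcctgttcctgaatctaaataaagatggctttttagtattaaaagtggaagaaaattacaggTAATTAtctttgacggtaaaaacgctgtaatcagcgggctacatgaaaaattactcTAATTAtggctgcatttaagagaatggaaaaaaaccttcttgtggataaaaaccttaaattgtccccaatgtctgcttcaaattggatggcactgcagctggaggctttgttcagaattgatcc
Adarb2, chr13:8202616-8202915, plus strand: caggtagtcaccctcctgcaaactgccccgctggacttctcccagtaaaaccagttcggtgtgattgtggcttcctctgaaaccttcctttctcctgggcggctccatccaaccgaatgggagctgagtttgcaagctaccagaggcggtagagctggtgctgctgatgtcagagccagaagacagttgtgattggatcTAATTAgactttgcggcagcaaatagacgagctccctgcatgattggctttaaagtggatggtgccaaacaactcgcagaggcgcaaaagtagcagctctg
Fos, chr12:85473640-85473939, plus strand: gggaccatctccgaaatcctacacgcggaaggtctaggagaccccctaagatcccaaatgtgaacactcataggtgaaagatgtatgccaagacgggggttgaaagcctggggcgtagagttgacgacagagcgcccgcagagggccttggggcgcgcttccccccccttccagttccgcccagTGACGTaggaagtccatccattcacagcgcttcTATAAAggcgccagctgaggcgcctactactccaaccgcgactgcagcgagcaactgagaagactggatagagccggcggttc
Malat1, chr19:5802623-5802922, minus strand: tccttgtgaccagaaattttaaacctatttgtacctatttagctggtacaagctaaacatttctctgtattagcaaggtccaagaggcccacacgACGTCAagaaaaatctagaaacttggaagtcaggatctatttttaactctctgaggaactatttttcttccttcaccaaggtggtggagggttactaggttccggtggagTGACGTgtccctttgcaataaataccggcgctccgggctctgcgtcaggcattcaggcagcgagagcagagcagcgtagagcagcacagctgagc

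TAATTA occurred 1 time in the first window of Dlx6os1, 2 times in its other window and 1 time in that of Adarb2. TGACGT occurred 1 time in the Fos window and 2 times in the Malat1 window, and TATAAA occurred 2 times in a Dlx6os1 window and 1 time in that of Fos. The motifs did not overlap each other there. The windows of Sdk2, Nrxn3 and Scgn, which are not shown, held 0 matches to any of the motifs. That of Btg1, also not shown, held 1 TGACGT and 1 TATAAA. RefSeq promoters were at hand for 160 of the 214 named genes, 178 windows in all. TAATTA was found in 12 of these (6.74%), against 5.29% of all 32851 promoter windows of the same length. TGACGT was found in 8.43% of member windows and 7.51% of all, and TATAAA in 17.4% and 13.6%. Their median GC content was 55.7%, against 52.7% for all windows. A match describes letters in a window and not a site in use.

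Among the 4 regions, 371 of 599 members differed by the moderated F test of limma (adjusted p under 0.05), which is 61.9%, against 55.9% of all 39227 probes tested and 65.3% of those above background in the sorted cells on every array, as all members are. Backgrounds are given below over all probes and then over these brighter ones. A range of region means of at least 1 log2 unit was added to that call for 37 members (6.18%), against 3.82% of all probes. The share was thus near the background, and small regional differences were common among members and other probes alike. The widest ranges belonged to Dlx6os1 (2.91), Sdk2 (1.85), Fos (1.81), Mog (1.66) and Brinp2 (1.55). At the other end, Adam26a, Flna, Pxdn, Cep192 and Slco5a1 had region means within 0.09 to 0.12 log2 units of each other. Pxdn, Cep192 and Slco5a1 were dim, with reference signals above background on 4, 1 and 1 of 16 arrays, so their fitted ranges are compressed by the 50-unit offset and show no sameness between regions. The deposited log10 ratio of Slco5a1 was 1.09 in cerebellum and 0.41 in striatum, while its fitted log2 mean was lowest in cerebellum (0.36).

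Dlx6os1, a long noncoding RNA transcribed at the Dlx5 and Dlx6 locus, had the highest ratio of all members and the largest fall among them, in the cerebellum. Its log2 ratios were 4.29, 4.25 and 4.04 in olfactory bulb, 3.84, 3.76 and 3.80 in cortex, 3.55, 3.41 and 3.41 in striatum and 1.21, 1.44 and 1.19 in cerebellum. The 4 whole-brain arrays gave 3.11, 3.32, 3.40 and 3.32. Regions did not overlap, and the order ran from olfactory bulb through cortex and striatum to cerebellum. The cerebellum averaged 1.28 ± 0.14 (SD, n = 3), against 3.82 for the mean of the other 3 regions, a difference of -2.54 (SE 0.08, adjusted p = 2.05e-14, limma). Olfactory bulb exceeded the other 3 by 1.35 (SE 0.08, adjusted p = 5.65e-10). Of the 18 measured genes in the list of forebrain GABAergic transcription factors, 14 were lower and 3 higher in cerebellum, where 19.2% and 21.3% of all probes were, so the fall of Dlx6os1 stood among many in that list.

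Sdk2 and Brinp2 also had their lowest region in the cerebellum. Sdk2 encodes an immunoglobulin-type adhesion molecule known from retinal synapse lamination, and its log2 ratios in cerebellum were 0.78, 0.87 and 0.91. They were 2.78, 2.82 and 2.41 in olfactory bulb, 2.66, 2.64 and 2.82 in cortex and 1.63, 1.58 and 1.51 in striatum. Olfactory bulb and cortex overlapped, striatum lay between, and the cerebellum fell by 1.47 below the mean of the other 3 (SE 0.10, adjusted p = 7.56e-10). Brinp2, a brain gene named for its induction by bone morphogenetic protein and retinoic acid, had 1.65, 1.57 and 1.71 in cerebellum, against 3.11, 3.45 and 3.02 in olfactory bulb, 2.38, 2.40 and 2.67 in cortex and 2.14, 1.79 and 2.30 in striatum. Its cerebellar arrays lay below all others, with a difference of -0.94 (SE 0.11, adjusted p = 3.20e-06). The median reference signal was 38.4 units for Sdk2 and 44.3 units for Brinp2, above background on 15 of 16 arrays for each.

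Btg1, an antiproliferative cofactor of transcription, and the histone demethylase gene Kdm5a were the other genes named for cerebellar arrays that all lay below the rest. Adarb2, Cyp11b2, Nrxn3, Chrnd and Fgb also fell there, with arrays that overlapped those of another region. Btg1 had 1.38, 1.43 and 1.42 in cerebellum, against 2.84, 2.93 and 2.76 in olfactory bulb, 2.64, 2.67 and 2.36 in cortex and 2.32, 2.32 and 2.14 in striatum. That is a difference of -1.15 (SE 0.08, adjusted p = 9.32e-10). Kdm5a had 1.77, 1.70 and 1.75 in cerebellum, against 2.05, 2.54 and 2.30 in olfactory bulb and 2.30, 2.28 and 2.26 in cortex, with 2.05 and 2.11 on the 2 striatum arrays that measured it (difference -0.48, SE 0.09, adjusted p = 0.000592). With scaling between arrays the Kdm5a difference was -0.87.

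Members higher in cerebellum were led by Mog, the myelin oligodendrocyte glycoprotein gene. The member probe had log2 ratios of 2.52, 2.18 and 2.87 in cerebellum, against 0.66, 0.80 and 1.14 in olfactory bulb, 1.41, 1.23 and 1.38 in cortex and 0.91, 0.97 and 1.04 in striatum. All cerebellar arrays lay above the others, by 1.46 on average (SE 0.12, adjusted p = 2.57e-08). The gene's other 2 probes both had mean log10 ratios below 0, the lower at -0.68, so the probes of this gene disagree on the side of the reference. Of 11 measured oligodendrocyte lineage genes, 6 were higher and 0 lower in cerebellum, where 21.3% and 19.2% of all probes were, while the median log2 ratio of that list was below 0 in every group, at -0.69 in whole brain, -1.25 in olfactory bulb, -1.23 in cortex, -0.58 in cerebellum and -0.96 in striatum.

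Olfr849, an olfactory receptor gene, had 2.08, 2.74 and 1.97 in cerebellum, against 1.32, 1.63 and 1.09 in olfactory bulb, 0.72, 0.98 and 0.89 in cortex and 1.06, 1.13 and 1.33 in striatum. It was higher in cerebellum by 1.14 (SE 0.17, adjusted p = 2.94e-05), and lower in cortex by 0.73 (difference -0.73, SE 0.17, adjusted p = 0.00869). Cavin4, a caveolar protein known from muscle, exceeded the other regions by 1.01 in cerebellum (SE 0.10, adjusted p = 1.93e-07), where its arrays gave 2.32, 2.04 and 2.47, against 1.15 to 1.42 on the other regional arrays. Chd7, a chromatin remodeller known for its part in cerebellar and olfactory development, had 2.32, 2.74 and 2.35 in cerebellum, against 2.12, 2.06 and 2.05 in olfactory bulb, 1.59, 1.32 and 1.57 in cortex and 1.38, 1.31 and 1.27 in striatum. Cerebellum exceeded the other 3 by 0.84 (SE 0.09, adjusted p = 1.04e-06), and cortex and striatum overlapped. In the list of 20 chromatin genes that holds Chd7, 2 were higher and 11 lower in cerebellum, where 21.3% and 19.2% of all probes were. Zc3h6, which encodes a zinc finger protein, was higher by 0.85 (SE 0.12, adjusted p = 1.46e-05), with 2.13 to 2.64 on the cerebellar arrays, against 1.20 to 1.93 on the other regional arrays. Another probe of that gene had a mean log10 ratio of -0.24, and in the sorted-cell channel alone the difference did not pass (0.54, adjusted p = 0.107). With scaling between arrays the cerebellar difference was 0.47 for Zc3h6 and 0.44 for Chd7, and both still passed. With the scanner software's ratios it was 0.75 for Olfr849.

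Over all members, cerebellum differed from the other 3 regions for 245 (40.9%), against 40.5% of all probes and 46.4% of the brighter ones. Of these, 196 were higher (32.7%, backgrounds 21.3% and 24.5%) and 49 lower (8.18%, backgrounds 19.2% and 21.9%). The median difference was 0.15 for members and 0.02 for all probes. This lean depended on the scale of the arrays. With ratios scaled to equal spread between arrays, 45 members were higher and 170 lower. With the scanner software's own ratios, 72 were higher and 79 lower, and with normexp without an offset 71 and 69. Median centring without loess gave 162 higher and 77 lower. The direction for the list as a whole is therefore not settled. Each of the 10 genes named here for the cerebellum kept its direction under every alternative run.

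**Figure D4:**
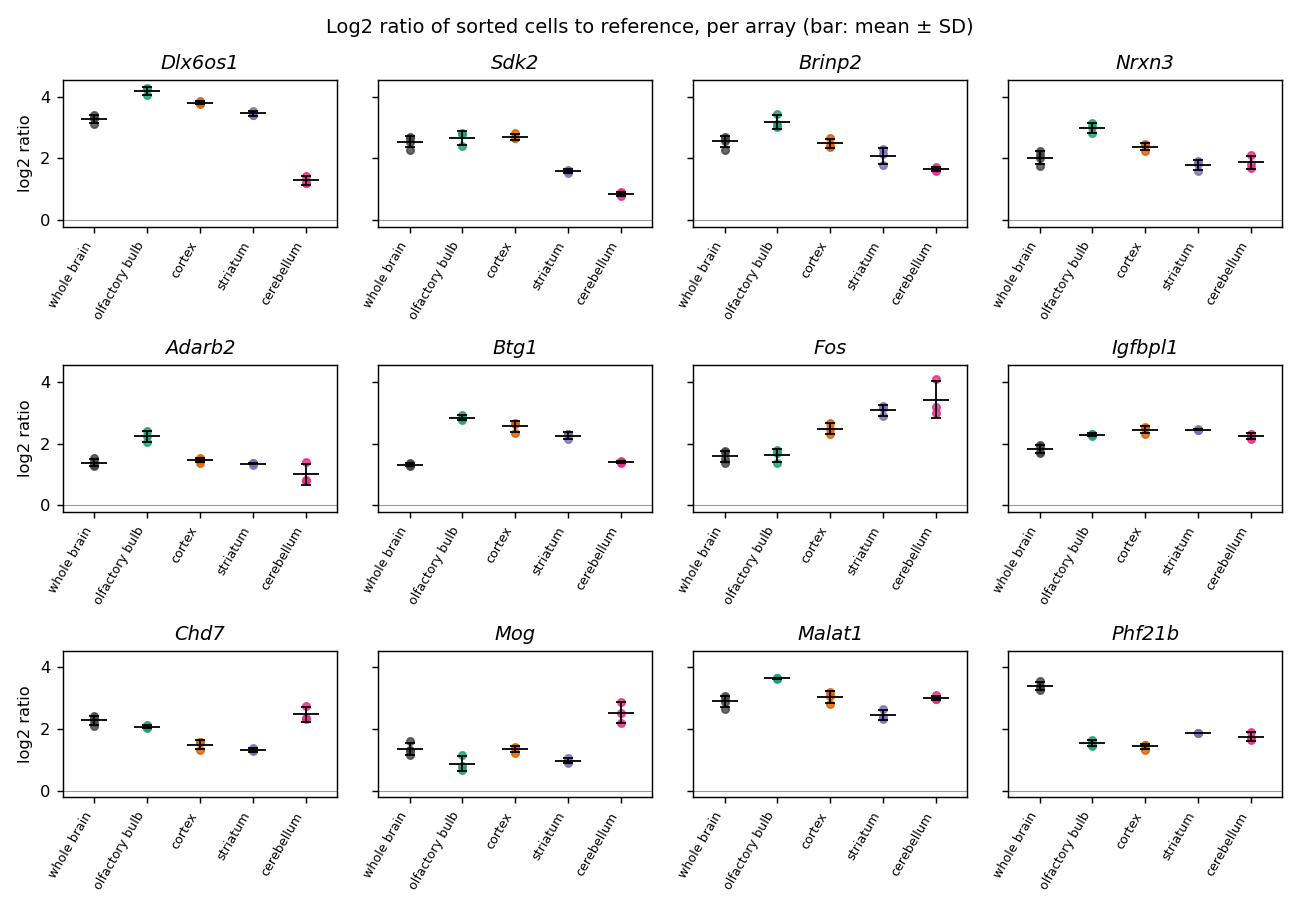
Log2 ratio of sorted cells to reference for 12 named members on each array, by group, with mean and SD (4 whole-brain arrays, 3 of each region). Dlx6os1, Sdk2, Brinp2 and Btg1 are lowest of the regions in cerebellum, Mog and Chd7 highest there, and Phf21b is highest in whole brain. Malat1 is plotted for the first of its 2 array names.

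Dlx6os1 and the neuronal genes Brinp2, Nrxn3 and Adarb2 were among the 5 members with the largest rises in olfactory bulb whose arrays there all lay above the other regions. Tmem238 (1.01) and Sdk2 (0.96) rose as much with overlapping arrays. After Dlx6os1 came Brinp2, which exceeded the other 3 regions by 1.12 (SE 0.11, adjusted p = 7.98e-07) with the values above. Cyp11b2, the aldosterone synthase gene of the adrenal cortex, had 3.03, 2.81 and 2.39 in olfactory bulb, against 2.37, 2.00 and 2.16 in cortex, 1.70, 1.37 and 1.49 in striatum and 1.38, 1.67 and 1.61 in cerebellum. Its olfactory bulb arrays all lay above the others, and the difference was 0.99 (SE 0.14, adjusted p = 3.78e-05), or 0.52 in the sorted-cell channel alone. Nrxn3 encodes a presynaptic adhesion protein and had 3.02, 3.14 and 2.82 in olfactory bulb, against 2.46, 2.24 and 2.44 in cortex, 1.92, 1.59 and 1.80 in striatum and 1.82, 2.11 and 1.68 in cerebellum. Olfactory bulb was apart, by 0.99 (SE 0.11, adjusted p = 2.15e-06), and striatum and cerebellum overlapped. Adarb2, an RNA-binding relative of the editing deaminases known to mark interneurons of the caudal ganglionic eminence, had 2.26, 2.42 and 2.05 in olfactory bulb, against 1.38, 1.47 and 1.53 in cortex, 1.38, 1.36 and 1.32 in striatum and 0.79, 1.39 and 0.83 in cerebellum. Its difference was 0.97 (SE 0.11, adjusted p = 2.19e-06), and the other 3 regions overlapped.

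Fos led the members that were lower in olfactory bulb. Fos is an immediate early gene, known to be induced by neuronal activity and by tissue dissociation. Its log2 ratios were 1.37, 1.78 and 1.69 in olfactory bulb, against 2.32, 2.68 and 2.47 in cortex, 3.22, 2.88 and 3.16 in striatum and 3.20, 4.10 and 2.98 in cerebellum. Striatum and cerebellum overlapped, cortex lay below both, and olfactory bulb lay below all by 1.38 on average (difference -1.38, SE 0.16, adjusted p = 5.72e-06). Of the 20 immediate early and dissociation genes in its list, 15 were lower and 1 higher in olfactory bulb, where 14.6% and 14.4% of all probes were. In striatum 9 of these genes were higher and 1 lower, and in cerebellum 8 were higher and 2 lower, where 14.1% and 14.2% of all probes were in striatum and 21.3% and 19.2% in cerebellum. The part of handling in these values was not tested.

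Other members lower in olfactory bulb were 2 chemosensory receptor genes, Olfr490 and Vmn1r9, the phosphodiesterase gene Gdpd3 and the myeloid receptor gene Cd300a. Vmn1r9 had 1.01, 1.36 and 1.27 in olfactory bulb, against 1.46 to 2.29 on the other regional arrays (difference -0.61, SE 0.12, adjusted p = 0.000943). Gdpd3 had 1.12, 1.22 and 1.30, against 1.42 to 2.09 (difference -0.52, SE 0.14, adjusted p = 0.00707), and Cd300a had 0.70, 0.94 and 1.19, against 1.22 to 1.65 (difference -0.48, SE 0.09, adjusted p = 0.000404). For Olfr490 the reference was not well above background on any olfactory bulb, cortex or whole-brain array. Its ratio was at least 1.41-fold in olfactory bulb, 2.18-fold in cortex and 2.47-fold in whole brain, and the fitted difference for olfactory bulb was -0.79 (SE 0.11, adjusted p = 4.52e-05). With the scanner software's ratios, Olfr490, Gdpd3 and Cd300a kept their direction and did not pass (adjusted p = 0.123, 0.0725 and 0.353), and the difference of Vmn1r9 was -0.35. Gdpd3 also missed the threshold with median centring (adjusted p = 0.0709), where Cd300a differed by -0.30. Differences were larger in the sorted-cell channel alone for Gdpd3 (-0.88) and Cd300a (-0.96), and without an offset for Olfr490 (-1.64, adjusted p = 0.0581).

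Over all members, olfactory bulb differed from the other 3 regions for 202 (33.7%), against 29.0% of all probes and 34.4% of the brighter ones. Of these, 125 were higher (20.9%, backgrounds 14.4% and 17.2%) and 77 lower (12.9%, backgrounds 14.6% and 17.2%), and the median difference was 0.01 for members and 0.00 for all probes. Other scalings moved the split further towards higher values, to 203 higher and 53 lower with median centring, 200 and 19 with the scanner software's ratios and 132 and 24 without an offset, while scaling between arrays gave 162 and 92. In the sorted-cell channel alone, 268 members were higher and 72 lower. Without olfactory bulb replicate 1 there were 111 higher and 35 lower, and without replicate 2 there were 78 higher and 68 lower.

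In cortex, fewer members stood apart than in any other region, as held for all probes tested (10.2%, against 28.3% to 40.5% elsewhere). Mterf1a, a mitochondrial transcription terminator, had 1.90, 2.08 and 1.87 in cortex, against 0.37 to 1.45 on the other regional arrays, a difference of 0.88 (SE 0.15, adjusted p = 0.000861). Its reference was above background on 10 of 16 arrays, including 1 olfactory bulb and 2 cortex arrays. Chrnd, the delta subunit of the muscle acetylcholine receptor, had 1.93, 1.61 and 1.73 in cortex, against 0.70 to 1.56 (difference 0.61, SE 0.12, adjusted p = 0.00339). Lce1h, a late cornified envelope gene of skin, and Zfp516, a zinc finger gene, were higher in cortex by 0.62 (SE 0.12, adjusted p = 0.00254) and by 0.60 (SE 0.11, adjusted p = 0.00221). Cdyl2, a chromodomain gene, had 2.02, 1.87 and 1.84 in cortex, against 1.12 to 1.73 (difference 0.51, SE 0.11, adjusted p = 0.0051). Besides Olfr849, the epoxide hydrolase gene Ephx3 (difference -0.33, SE 0.10, adjusted p = 0.0407) and Olfr73 (difference -0.32, SE 0.10, adjusted p = 0.0465) were lower in cortex. The calls of Ephx3 and Olfr73 lay near the threshold and were lost without any one of the 3 cortex arrays. Mterf1a differed by 1.36 without an offset, and with the scanner software's ratios it did not pass (adjusted p = 0.0875). Without an offset Olfr849 did not (adjusted p = 0.0508), and in the sorted-cell channel alone Lce1h did not (adjusted p = 0.0803). Without cortex replicate 1, the adjusted p was 0.0505 for Cdyl2 and 0.0685 for Olfr849.

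Cortex differed from the other 3 regions for 79 members (13.2%), against 10.2% of all probes and 12.2% of the brighter ones, with 51 higher (8.51%, backgrounds 4.27% and 5.12%) and 28 lower (4.67%, backgrounds 5.97% and 7.05%). The median difference was 0.00 for members and -0.01 for all probes. The count fell to 28 (20 higher, 8 lower) without cortex replicate 1 and to 36 (22 higher, 14 lower) without cortex replicate 3. Without cortex replicate 2 there were 41 higher and 12 lower, and without olfactory bulb replicate 2 there were 57 higher and 18 lower. Median centring gave 30 higher and 26 lower, the scanner software's ratios 43 and 11, and normexp without an offset 51 and 8.

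In striatum, members mostly had lower ratios than elsewhere, and no gene with a symbol that was called higher there had its striatum arrays apart from the others. Loxl2, a lysyl oxidase of the extracellular matrix, had 1.70, 1.56 and 1.48 in striatum, against 2.68, 2.69 and 2.68 in olfactory bulb, 2.44, 2.17 and 2.42 in cortex and 2.19, 2.60 and 2.15 in cerebellum. All striatum arrays lay below, by 0.87 on average (difference -0.87, SE 0.10, adjusted p = 5.92e-06). Malat1 was lower in striatum for both of its array names. Under the first it had 2.63, 2.39 and 2.31 in striatum, against 3.66, 3.62 and 3.65 in olfactory bulb, 3.19, 2.82 and 3.08 in cortex and 2.97, 3.09 and 2.96 in cerebellum (difference -0.78, SE 0.10, adjusted p = 1.22e-05). Under the second the difference was -0.72 (SE 0.10, adjusted p = 4.53e-05), from 2.28, 2.13 and 2.07 in striatum, against 2.50 to 3.20 on the other regional arrays. Both probes were saturated on 1 array. Utp14b, a ribosome biogenesis factor, was lower by 0.71 (difference -0.71, SE 0.09, adjusted p = 1.36e-05), and Polr3k, a subunit of RNA polymerase III, was lower by 0.66 (difference -0.66, SE 0.08, adjusted p = 1.49e-05).

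Striatum differed from the other 3 regions for 211 members (35.2%), against 28.3% of all probes and 34.4% of the brighter ones. Of these, 198 were lower (33.1%, backgrounds 14.2% and 17.1%) and 13 higher (2.17%, backgrounds 14.1% and 17.3%). The median difference was -0.19 for members and -0.02 for all probes. Beside this, the SD of all log2 ratios was smallest on the striatum arrays, at 0.59 to 0.62, against 0.68 to 0.75 in olfactory bulb, 0.67 to 0.72 in cortex and 0.70 to 0.79 in cerebellum. After scaling the arrays to equal spread, 85 members were lower and 59 higher, and the median difference was -0.01. Other processing kept the lean, at 225 lower and 10 higher with median centring and 223 and 3 with the scanner software's ratios. Without an offset 180 were lower and 13 higher, and in the sorted-cell channel alone 226 and 6. With the main processing, the count was 131 (121 lower, 10 higher) without striatum replicate 2, which was read by the scanner software under another extraction protocol. Without replicate 1 or 3, 7 and 6 members were higher. Loxl2, Malat1, Utp14b and Polr3k were lower in striatum under every alternative run, with smaller differences under some. With scaling between arrays these were -0.41 and -0.40 for the 2 names of Malat1 and -0.44 for Polr3k, and with median centring -0.43 and -0.34 for Malat1, -0.42 for Utp14b and -0.42 for Polr3k. In the sorted-cell channel alone Loxl2 differed by -0.45.

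**Figure D5:**
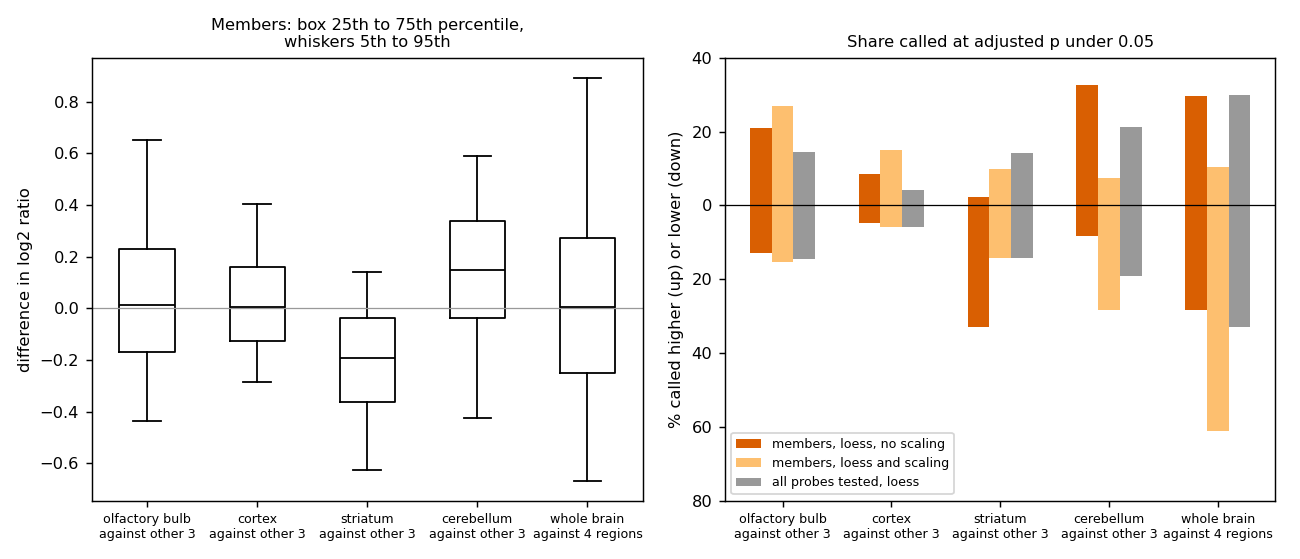
Left, difference in log2 ratio of the 599 members for each region against the other 3 and for whole brain against the 4 regions (box: quartiles, whiskers: 5th to 95th percentile). Right, % called higher (up) or lower (down) at adjusted p under 0.05, for members without scaling (dark orange), for members after scaling between arrays (light orange) and for all 39227 probes (grey). In striatum 33.1% of members were lower without scaling, against 14.2% of all probes, and scaling removed most of that lean.

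In whole brain, Phf21b and Phc2 stood among the highest named members and Kdm5a among the lowest. In the list of 20 chromatin genes that holds Chd7, 3 were higher and 11 lower there, where 29.9% and 32.9% of all probes were. Of the 32 transcription and chromatin members, grouped after their values were seen, 13 were higher and 7 lower. Over all members the shares were 29.5% and 28.2%. Phf21b, a PHD finger gene, had 3.27, 3.40, 3.56 and 3.35 on the whole-brain arrays, against 1.32 to 1.91 on the 12 regional arrays, a difference of 1.75 (SE 0.07, adjusted p = 2.01e-14). Phc2, a Polycomb gene, had 2.59, 2.83, 2.94 and 2.64 in whole brain, against 1.18 to 1.84 in the regions (difference 1.18, SE 0.07, adjusted p = 1.70e-11). Lce1h and Zfp516, higher in cortex among the regions, were higher still in whole brain, by 1.28 (SE 0.10, adjusted p = 1.14e-09) and 1.11 (SE 0.10, adjusted p = 5.57e-09) over the mean of the 4 regions. Gpr107, a receptor of the Golgi, had 1.43, 2.16, 2.27 and 2.17 in whole brain, against 0.21 to 1.22 in the regions (difference 1.34, SE 0.14, adjusted p = 4.99e-08). Its reference was above background on 6 of 16 arrays, and 2 of the gene's 4 probes had mean log10 ratios below 0. The sizes of the rises depended on scaling. With ratios scaled between arrays the whole-brain difference was 1.02 for Phf21b, 0.58 for Phc2, 0.57 for Lce1h and 0.47 for Zfp516, and in the sorted-cell channel alone 0.63 for Lce1h and 0.65 for Zfp516, each still past the threshold.

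Btg1 led the named members whose whole-brain arrays all lay below the regional ones, with 1.27, 1.37, 1.35 and 1.30 in whole brain, against 1.38 to 2.93 in the regions (difference -0.95, SE 0.07, adjusted p = 1.15e-10). Kdm5a had 1.05 and 1.27 on the 2 whole-brain arrays that measured it, against 1.70 to 2.54 in the regions (difference -0.94, SE 0.10, adjusted p = 4.55e-07). Ttll6, a tubulin polyglutamylase, had 0.69, 0.97, 1.03 and 1.03 in whole brain, against 1.24 to 2.16 (difference -0.86, SE 0.08, adjusted p = 2.23e-08). Srsf3, a splicing factor, was lower by 0.78 (difference -0.78, SE 0.07, adjusted p = 2.15e-09), with 0.80 to 1.01 in whole brain, against 1.45 to 1.89 in the regions, and Tmem238 by 0.77 (difference -0.77, SE 0.15, adjusted p = 0.000141), or by 1.22 with scaling between arrays (difference -1.22). Igfbpl1, which marks newborn neurons, had 1.72, 1.96, 1.94 and 1.68 in whole brain, against 2.16 to 2.54 in the regions (difference -0.54, SE 0.07, adjusted p = 6.25e-07). Its F test among regions did not pass (adjusted p = 0.13), with a range of 0.21 between region means. Of the 19 neuroblast genes in its list, 15 were lower and 1 higher in whole brain, where 32.9% and 29.9% of all probes were.

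Whole brain differed from the 4 regions for 346 members (57.8%), against 62.7% of all probes and 69.0% of the brighter ones, with 177 higher (29.5%, backgrounds 29.9% and 31.3%) and 169 lower (28.2%, backgrounds 32.9% and 37.7%). The median difference was 0.01 for members and 0.00 for all probes. The whole-brain arrays were scanned on another day than the regional ones, so scan day and source cannot be told apart, and the SD of all log2 ratios was 0.86 to 0.95 on them. After scaling between arrays 63 members were higher and 366 lower, with the scanner software's ratios 175 and 104, and with median centring 229 and 141.

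The named members were also sorted by what the genes are known for, in groups chosen after their values were seen. The 16 neuronal and interneuron genes had median log2 ratios of 1.77 in whole brain, 1.94 in olfactory bulb, 1.76 in cortex, 1.71 in cerebellum and 1.42 in striatum. Of these genes, 7 were higher and 2 lower in olfactory bulb, and 1 was higher and 9 lower in striatum. Over all 599 members, 20.9% were higher and 12.9% lower in olfactory bulb. In striatum 2.17% were higher and 33.1% lower, a lean that scaling between arrays mostly removed and other processing kept. Beyond those above, the 16 genes include Auts2, with 3 member probes, whose whole-brain arrays gave 2.19, 2.46, 2.64 and 2.31, against 1.1 to 2.19 in the regions. Neuroglobin (Ngb), an oxygen-binding protein of neurons, had 2.23, 2.34 and 2.08 in cerebellum, against 1.35 to 1.99 on the other regional arrays (difference 0.59, SE 0.08, adjusted p = 2.22e-05). Secretagogin (Scgn), a calcium-binding protein known from olfactory bulb interneurons, had 0.82, 1.03 and 1.13 in olfactory bulb, against 0.63 to 1.12 on the other regional arrays, which overlapped (F test adjusted p = 0.14). Auts2, Ngb and Scgn were picked after their values were seen.

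Other groups held genes best known outside the brain. The sizes of the groups were not set against the share of such genes over all probes. Of the 216 names with a symbol, 86 were put in no group, and neither were the 383 names without one. The 24 olfactory, vomeronasal and taste receptor genes had medians of 1.33 in whole brain, 1.26 in olfactory bulb, 1.36 in cortex, 1.44 in cerebellum and 1.1 in striatum, and the reference was above background on all arrays for 12 of them. In cerebellum 9 were higher and 3 lower, and in striatum 0 were higher and 9 lower, near the 32.7% of all members that were higher in cerebellum and the 33.1% that were lower in striatum. The 27 genes of liver, gland, skin and other epithelia included Fgb, Cyp11b2, Lce1h and Shbg. In cerebellum 11 of them were higher and 2 lower, where 32.7% and 8.18% of all members were. Fgb itself had 3.07, 3.02 and 2.94 in olfactory bulb and 3.34, 2.82 and 3.10 in cortex, against 2.15, 2.19 and 2.25 in striatum and 2.43, 2.11 and 2.55 in cerebellum, and 1.78, 2.04, 2.04 and 1.83 in whole brain. The 20 immune and blood cell genes, the 32 transcription and chromatin genes and the 11 names of RNA processing genes had 6, 9 and 3 members higher in cerebellum. There 1, 2 and 1 were lower, and in striatum 6, 8 and 7 were lower and 0, 3 and 1 higher. Over all probes, 21.3% were higher and 19.2% lower in cerebellum, and 14.1% higher and 14.2% lower in striatum. None of the 14 microglial, 14 endothelial and mural or 7 measured erythroid marker genes was a member, where 1.21% of all genes tested were. For lists of this size, no member is near that share and says nothing on the presence of those cells. Ramp2 of vessels and Slc1a2 of astrocytes had a probe at the minimum and were dropped for another below 0.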

How the data were processed

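Amplified cDNA of sorted cells (Cy5) and of a common total brain reference (Cy3) was hybridised on 16 two-colour Agilent arrays. Spot intensity values were deposited as scanner output, read with Agilent Feature Extraction 8.1.1.1 per the submitters' processing notes. The log10 ratios in the authors' deposited value table matched the scanner software's log ratio within 0.005, so they run as sorted cells over reference. 1 malformed spot line was left out.

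Members were taken from the deposited log10 ratios, and the members and gene lists were chosen with earlier results of these data known. For tests, limma 3.58.1 in R 4.3.3 was run on mean signals and median backgrounds (normexp, offset 50; loess within arrays, control and outlier spots at weight 0; probes averaged). Group means were fitted over all 16 arrays for 39227 probes, kept when well above background on at least 3 arrays in the sorted channel or 8 in the reference. P-values were moderated by limma and adjusted over all these probes by Benjamini-Hochberg. The fit was tested on simulated data. Array number limits the precision. Median signals per array, with background not subtracted, were 150.9 to 717.5 units in sorted cells and 92 to 254 in the reference. Within-group correlations of arrays were 0.934 to 0.992.

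A member is represented by its brightest member probe. Named are the 12 highest by lowest-group ratio, members in a list, the 3 nearest each side of the minimum, the 5 widest and 5 narrowest ranges, and per comparison up to 5 highest and 5 lowest called members whose arrays do not overlap. Only gene symbols are used, and Gad1, Gad2 and Slc32a1 check the labels. In whole brain, Gad1 and Gad2 did not bear out the label. Names were updated through RefSeq. A value was missing on at least 1 array for 31 members, and the fit drops such arrays for that probe. Deviations of same-numbered regional samples correlated at -0.118 to 0.248 (median 0.03), against -0.245 to 0.243 (median -0.02) for other numbers. These ranges overlap and cannot decide whether same-numbered samples share animals or preparation. The main fit used no replicate block, and counts with one are given below. Alternatives covered background correction, normalization, scaling, the dim-probe filter, the sorted channel alone, a replicate block, each left-out replicate and the thresholds of the rule.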

Additional observations from a re-analysis of the deposited data

Results flagged for a closer look

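Among 50 named members tested over the 4 whole-brain arrays, 4 had a single array far from the other 3 by Dixon's criterion, and chance gives this in about 1 of 20 groups. Gpr107 had a log2 ratio of 1.43 in replicate 1, against 2.16 to 2.27 in the others. Zfp516 had 2.68 in replicate 4, against 2.84 to 2.86. Slco5a1 had 1.04 in replicate 1, against 0.69 to 0.73, and Pxdn had -0.10 in replicate 1, against 0.51 to 0.61, which put Pxdn below the reference on that array on this scale.

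Differences between groups, each tested with limma, were found among the 4 regions for 371 members (61.9%, against 55.9% of all probes tested). Set against the other 3 regions, cerebellum differed for 245 members (40.9%, against 40.5%) and striatum for 211 (35.2%, against 28.3%). Olfactory bulb differed for 202 (33.7%, against 29.0%) and cortex for 79 (13.2%, against 10.2%). Whole brain differed from the 4 regions for 346 (57.8%, against 62.7%). Among probes above background in the sorted cells on every array, the shares were 65.3%, 46.4%, 34.4%, 34.4%, 12.2% and 69.0%, in the same order. Such counts are therefore not particular to the members. Gad1 and Gad2 differed by -2.34 and -1.87 log2 units between whole brain and the regions. Scan day and source cannot be told apart in the whole-brain values.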

How the results depend on the processing

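The number of members followed the thresholds: 1368 names at a minimum of 0.3, 225 at 0.5, 282 with every array at 0.4, 295 with the reference above background on all arrays, and 112 (111 shared) when log2 ratios after normexp and loess were held to the same minimum. Counts of calls moved by over 1.5 times for cortex with scaling between arrays (125), for cerebellum without an offset (140) and with the scanner software's ratios (151), and for olfactory bulb in the sorted-cell channel (340). Leaving out 1 replicate gave 324 to 401 members differing among regions, 146 to 230 for olfactory bulb, 28 to 85 for cortex, 131 to 224 for striatum, 196 to 260 for cerebellum and 312 to 363 for whole brain, and 567 to 630 members of the rule. With the replicate block the counts were 399 among regions, 227, 90, 227 and 268 for olfactory bulb, cortex, striatum and cerebellum, and 334 for whole brain, each within 1.5 times. Of 43 results of named genes, 982 alternative values kept direction and side of the threshold, 40 kept direction and lost the call, and 0 reversed. No scan or slide block could be fitted, since each group lies in 1 scan day and each array on its own slide. Chosen after seeing the data, joining by updated symbols gave 585 members, and the 12 regional arrays alone gave 878. Dim reference signals leave only bounds for 155 members.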
